A study of Mus musculus with 12 samples.

Results

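The 10 genes described here belong to the BCL2 family, whose proteins hold a T cell alive or start its death at the mitochondrion. They were taken from the deposited count table by gene symbol (Bcl2, Bcl2l1, Mcl1, Bcl2l11, Bbc3, Pmaip1, Bax, Bak1, Bid and Bad), 10 of 49585 genes, and all 10 passed the filter on low counts that left 13118 genes for testing. The study asked how the Cd4 and Cd8 gene loci direct T cells to the helper or the cytotoxic lineage, and RNA-seq was performed on sorted LN T cells of 4 groups with 3 samples each. B6 CD4+ and B6 CD8+ T cells came from C57BL/6 mice, and homozygous CD8Dual mice gave the CD8.1 and CD8.2 T cells (8in4 in the labels). In CD8Dual mice the Cd4 locus was altered to encode CD8α.1 with CD8β in place of CD4, and the Cd8 locus was intact and encoded CD8α.2 with CD8β, so CD8.1 marks cells that express the Cd4 locus, CD8.2 marks cells that express the Cd8 locus, and both kinds of co-receptor see MHC-I. All donors were untreated males of 6-10 weeks. Cells were sorted as TCRβ+ (antibody H57) and CD62L+, the methods of the study add CD44-, and RNA was made from pooled sorted cells. The sources do not say whether samples of a group came from separate mice or pools, so the P values measure the spread between these samples.

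In healthy lymphocytes the anti-apoptotic proteins BCL-2 (Bcl2), BCL-xL (Bcl2l1) and MCL-1 (Mcl1) bind and restrain their pro-apoptotic relatives. BH3-only proteins such as BIM (Bcl2l11), PUMA (Bbc3), NOXA (Pmaip1), BID (Bid) and BAD (Bad) carry stress and cytokine-withdrawal signals, by occupying the anti-apoptotic proteins or by activating the effectors. The effectors BAX (Bax) and BAK (Bak1) open the outer mitochondrial membrane, which releases cytochrome c and leads to caspase activation. In naive T cells, IL-7 receptor signals are known to sustain BCL-2, and BIM is the main killer that BCL-2 holds in check.

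Bcl2 and Bid differed between the lineages in both strains of mice, and the DNA just upstream of each is shown for that reason, from the RefSeq promoter table of GRCm38.p6. Both genes lie on the minus strand, and both stretches are printed 5′ to 3′ in the direction of transcription and end before the first annotated exon. Capitals mark each match to the GC box letters GGGCGG, on either strand (CCGCCC on the other). The Bcl2 stretch is chr1:106714291-106714540 and the Bid stretch is chr6:120916854-120917074.
Bcl2: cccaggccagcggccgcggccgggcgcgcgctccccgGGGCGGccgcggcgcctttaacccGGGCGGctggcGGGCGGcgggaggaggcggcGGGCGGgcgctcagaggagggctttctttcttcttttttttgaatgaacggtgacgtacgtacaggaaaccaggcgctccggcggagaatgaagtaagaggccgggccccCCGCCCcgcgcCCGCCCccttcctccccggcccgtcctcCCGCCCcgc
Bid: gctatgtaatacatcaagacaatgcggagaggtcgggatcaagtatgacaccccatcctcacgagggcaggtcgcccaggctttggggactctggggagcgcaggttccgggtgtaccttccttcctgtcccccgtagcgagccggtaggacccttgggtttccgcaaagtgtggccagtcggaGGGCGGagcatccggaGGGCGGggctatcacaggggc
The Bcl2 stretch held 7 GC boxes in 250 bases and was 74.8% G or C, and the Bid stretch held 2 in 221 bases and was 62.4% G or C. Over the 250 bases upstream of the 32851 promoters searched (all promoters below), the median G or C content was 52.4% and 32.7% held a GC box. A GC box was found in 10 of the 15 promoters searched for 9 of the genes. No promoter of Pmaip1 was among those searched, so its motifs are not described.

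FOXO factors are known regulators of Bcl2l11 and Bbc3, and the letters TGTTTAC, a FOXO motif, were found on either strand in 2 of the 15 promoters, 1 each for these 2 genes, against 3.17% of all promoters. Capitals mark the match, which is on the minus strand in the first and on the plus strand in the second. The windows are chr2:128125800-128125829 for Bcl2l11, 221 bases before its start site, and chr7:16310083-16310112 for Bbc3, 161 bases before a RefSeq start site that lies inside the first intron of longer Bbc3 transcripts, and both are printed on the plus strand.
Bcl2l11: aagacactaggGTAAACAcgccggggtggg
Bbc3: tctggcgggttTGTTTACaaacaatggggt
The RUNX letters TGTGGT were found for Bak1 alone (14% of all promoters), the E-box CACGTG for Bbc3 and Bax (6.02%), and neither the STAT letters TTCNNNGAA (7.02%) nor the AP-1 letters TGACTCA (4.46%) in any of the 15. A match is a description of letters in a window, not of binding.

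Libraries held 18667474 to 37110502 counts, and a floor of 3 counts corresponded to 0.0875 to 0.167 CPM (counts per 1000000 of the library, scaled by TMM), for counting error only. Co-receptor transcripts matched the labels: Cd4 averaged 969 CPM in B6 CD4+ T cells and 49.7 in CD8.1 T cells, whose Cd4 locus carries the insert, and Cd8a averaged 1420 and 1460 CPM in B6 CD8+ and CD8.2 T cells. The 6 T cell markers and 6 naive T cell markers were high in every sample, with summed levels of 3690 to 4510 and 4620 to 5540 CPM. Markers of other states differed between the groups. The summed level of 9 regulatory T cell markers was 220 to 329 CPM in B6 CD4+, 519 to 617 in CD8.1, 81.8 to 85.0 in B6 CD8+ and 69.7 to 75.7 in CD8.2 T cells, and Foxp3, which defines these cells, was at 32.6, 37.8 and 44.6 CPM in B6 CD4+ samples and at 102, 149 and 168 CPM in CD8.1 samples. For 8 memory or effector markers the sum was 132 to 167, 331 to 373, 1350 to 1490 and 952 to 1050 CPM in the same order of groups. The 7 B cell markers summed to 62.5 to 154 CPM and 8 myeloid or dendritic markers to 67.4 to 111 CPM, of which Cst3 made up 62.2 to 94.1. Both sums had their highest median in CD8.1, overlapping CD8.2 (100 to 154 against 71.6 to 126, and 101 to 111 against 81.6 to 105). Of 6 NKT markers, Zbtb16 was at 0 in both B6 groups and at most 1.02 CPM elsewhere. In bulk RNA, fewer cells of a kind and less RNA per cell cannot be told apart.

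Compared per kilobase of exon, Mcl1 was the most abundant of the 10 genes in every group and Pmaip1 the least. Mcl1 averaged 132 ± 10.3 CPM per kilobase (SD, n = 3) in B6 CD4+ and 107 ± 6.58 in B6 CD8+ samples, and 140 ± 5.62 in CD8.1 and 122 ± 1.03 in CD8.2 samples. Bcl2 averaged 12, 18.2, 8.67 and 10.8 on the same scale, and Bcl2l1 4.77, 4.58, 6.03 and 3.44. Within the summed level of the 3 anti-apoptotic genes, Mcl1 thus made up 88.7% ± 0.702 in B6 CD4+ and 82.4% ± 0.651 in B6 CD8+ samples, and 90.5% ± 0.100 in CD8.1 and 89.6% ± 0.265 in CD8.2 samples. The Bcl2 share was highest in B6 CD8+ T cells (13.5% to 14.8% over samples) and was 4.80% to 8.80% in the other groups. The effectors Bak1 (23.1 to 28.4) and Bax (18.5 to 21.3) were next after Mcl1 in every group, and BH3-only genes were lower, at 7.39 to 8.89 for Bcl2l11, 7.07 to 13 for Bbc3, 4.47 to 8.62 for Bid, 4.67 to 6.13 for Bad and 0.341 to 1.89 for Pmaip1. With the longest transcript as the length, Mcl1 stayed first and Pmaip1 last.

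**Figure D1:**
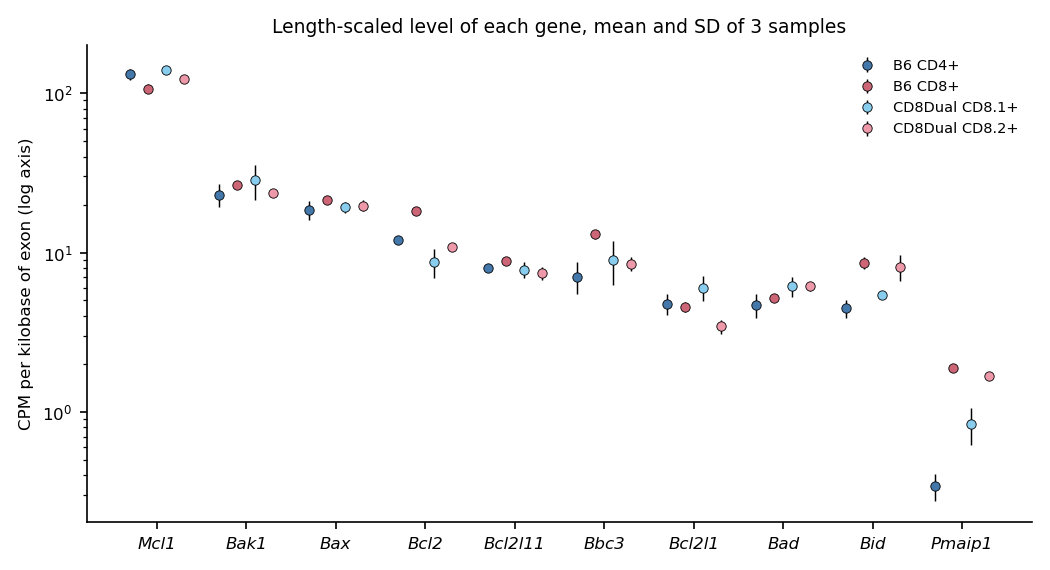
Length-scaled level (CPM per kilobase of exon, log axis) of the 10 genes, with points for the mean and bars for the SD of 3 samples in each of the 4 groups. Mcl1 sits at 107 to 140 and Pmaip1 at 0.341 to 1.89.

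In B6 mice, CD4+ T cells had less Bcl2, Bbc3, Pmaip1 and Bid transcript than CD8+ T cells and more Mcl1. These 5 of 10 genes were called by edgeR's quasi-likelihood test at an adjusted P under 0.05, beside 23.1% of all tested genes. In CD8Dual mice, CD8.1 T cells, compared with CD8.2 T cells, had less Bcl2, Pmaip1 and Bid and more Bcl2l1, 4 of 10 genes beside 28.7% of all. Across strains, CD8.1 T cells had less Bcl2 and more Pmaip1 than B6 CD4+ T cells (2 of 10, beside 12.8%), and CD8.2 T cells had less Bcl2 and Bbc3 than B6 CD8+ T cells (2 of 10, beside 7.94%). For the lineage difference itself, a difference between the strains was called for Pmaip1 (1 of 10, beside 1.87%). The comparisons across both strain and lineage called 6 genes for CD8.1 against B6 CD8+ cells (beside 39.1%) and 4 for CD8.2 against B6 CD4+ cells (beside 26.9%). Over the 10 genes, the median log2 fold change was -0.19 for B6 CD4+ over CD8+, 0.04 for CD8.1 over CD8.2, 0.29 for CD8.1 over B6 CD4+ and -0.16 for CD8.2 over B6 CD8+, where that of all tested genes was 0.00 each time. These comparisons share groups and are not independent of each other.

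**Figure D2:**
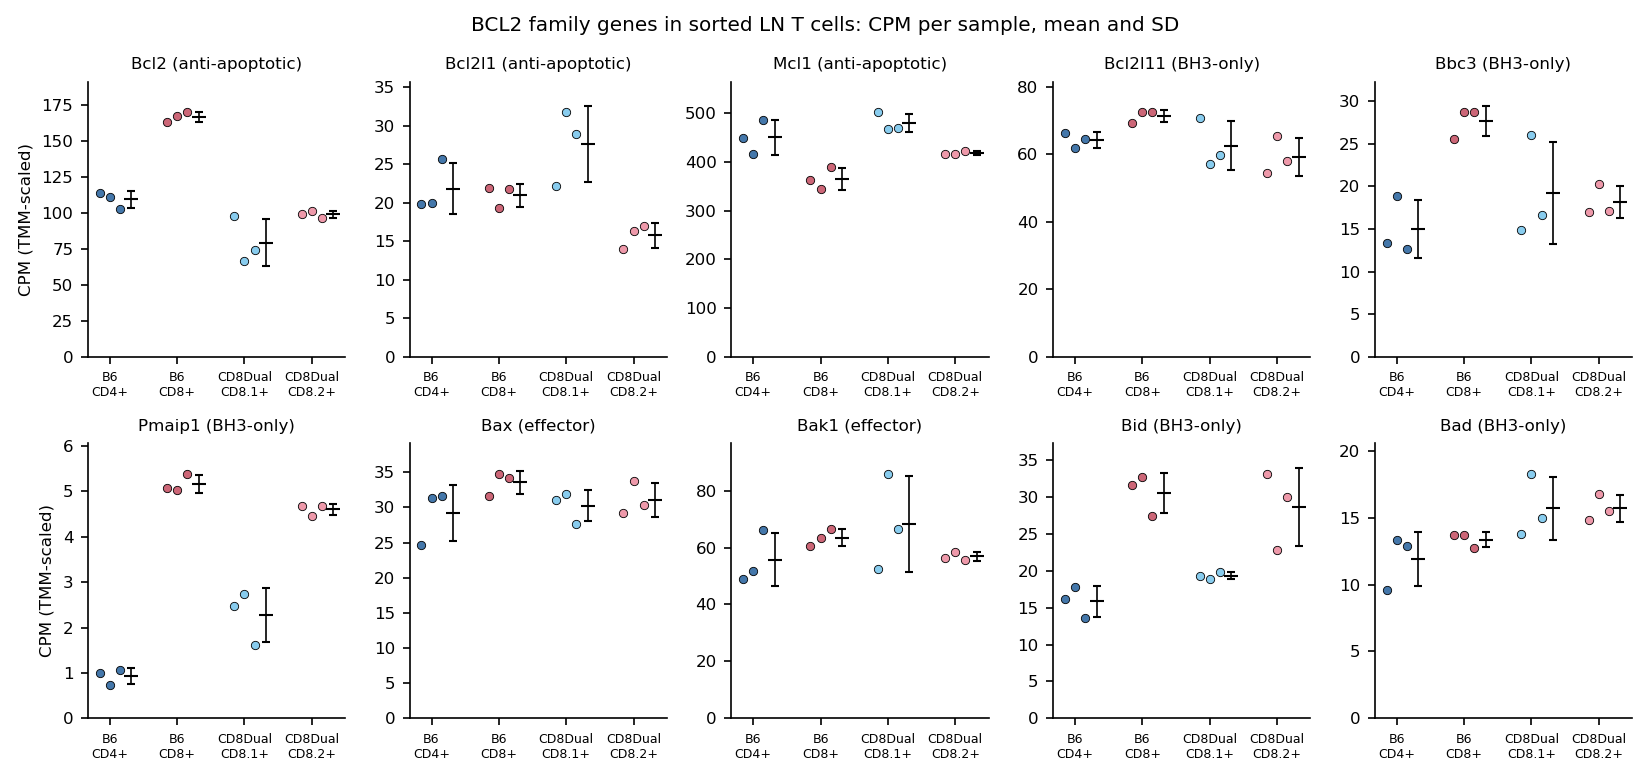
CPM (TMM-scaled, axes from 0) of each gene in each sample; points are samples, and the dash and bars beside them the mean and SD of 3 samples. Bcl2 is highest in B6 CD8+ T cells (163 to 170 CPM), and Pmaip1 is lowest in B6 CD4+ (0.733 to 1.06 CPM) and highest in B6 CD8+ T cells (5.02 to 5.39 CPM).

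**Figure D3:**
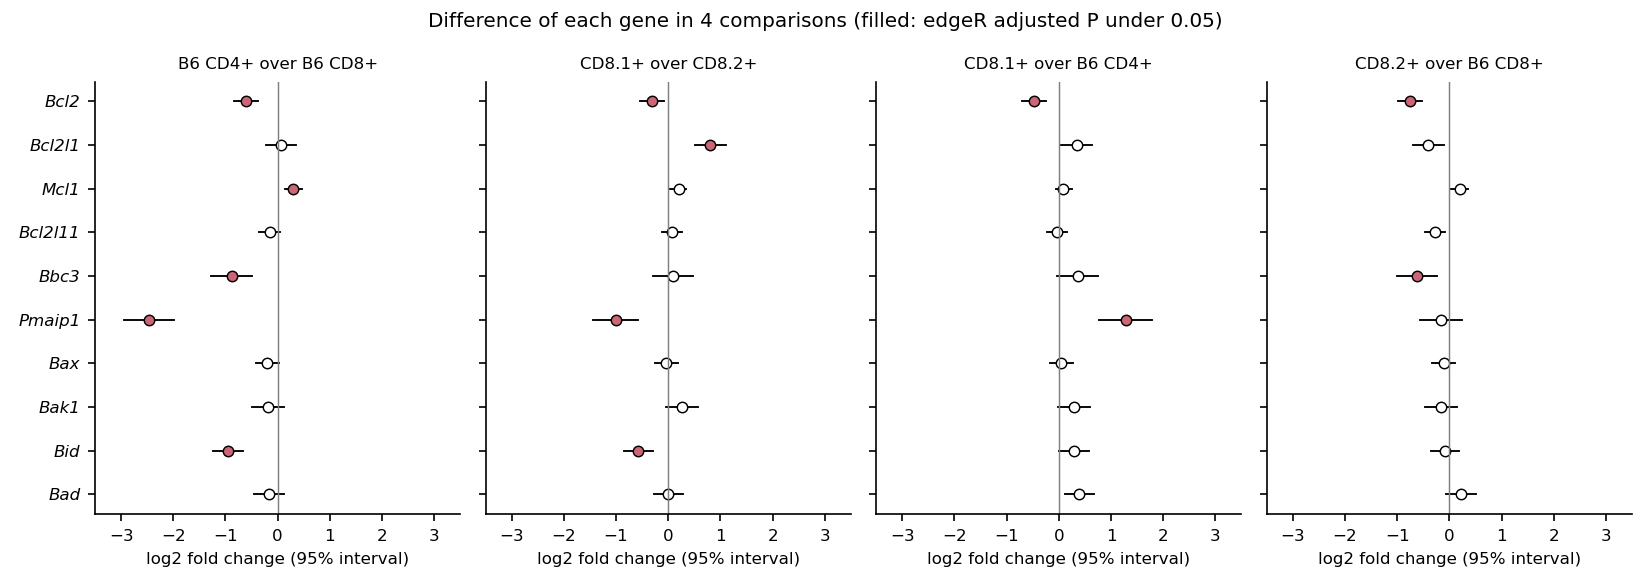
Log2 fold change of each gene with its 95% interval in the 4 comparisons within and between strains; filled points have an edgeR adjusted P under 0.05. Bcl2 lies below 0 in all 4 panels, at -0.60, -0.32, -0.47 and -0.75.

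Bcl2 (chromosome 1, 106538178 to 106714274, minus strand, GRCm38) encodes the founding anti-apoptotic protein of the family. It was measured at 114, 111 and 103 CPM in B6 CD4+ samples, at 163, 167 and 170 in B6 CD8+, at 97.7, 66.4 and 74.1 in CD8.1 and at 99.4, 101 and 96.4 in CD8.2. The B6 CD8+ samples were above all others, and CD8.1 replicate 1 lay within the range of the CD8.2 samples while the other two CD8.1 samples were the lowest of the 12. In B6 mice Bcl2 was 1.52-fold higher in CD8+ than in CD4+ T cells (log2 fold change of CD4+ over CD8+ -0.60, 95% interval -0.83 to -0.38, adjusted P = 0.000557). In CD8Dual mice it was 1.25-fold higher in CD8.2 than CD8.1 T cells (-0.32, -0.55 to -0.09, adjusted P = 0.0386). That call was lost without any 1 of 5 samples, all but CD8.1 replicate 1, with adjusted P values of 0.0751 to 0.181 and the widest shift, to -0.21, without CD8.1 replicate 2. It was also lost with only the 2 CD8Dual groups in the fit (-0.31, adjusted P = 0.123).

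Both CD8Dual subsets had less Bcl2 than the B6 subset of the same lineage. Compared with B6 CD8+ T cells, the CD8.2 subset was 1.68-fold lower (log2 fold change -0.75, -0.98 to -0.52, adjusted P = 0.00065), and the call remained in every fit tried, with log2 fold changes of -0.78 to -0.64 and adjusted P values up to 0.00696. Against B6 CD4+ T cells, CD8.1 T cells were 1.38-fold lower (-0.47, -0.70 to -0.24, adjusted P = 0.0124), a call lost without B6 CD4+ replicate 1 (-0.44, adjusted P = 0.0577) or CD8.1 replicate 2 (-0.35, adjusted P = 0.0576), or with only these 2 groups fitted (adjusted P = 0.0786). CD8.2 T cells and B6 CD4+ T cells, neighbours in the order of levels, did not differ beyond the threshold (-0.15, -0.38 to 0.08, adjusted P = 0.344). Long transcripts as such were lower in CD8Dual mice. The 962 tested genes whose longest transcript had over 6000 and up to 8000 bases, as Bcl2 does with 7191, had a median log2 fold change of -0.09 in both of these comparisons. With each sample's trend on transcript length taken out, an alternative chosen after seeing the data, the log2 fold change of Bcl2 was -0.64 for CD8.2 over B6 CD8+ (adjusted P = 0.00115) and -0.32 for CD8.1 over B6 CD4+ T cells (adjusted P = 0.0482), and the difference between CD8.1 and CD8.2 was -0.25 (adjusted P = 0.0708). An antisense gene, D630008O14Rik, shares exon bases with Bcl2 but reached no more than 0.0885 CPM. The regulatory T cell marker sum, higher in CD8.1 than B6 CD4+ T cells, was 519 CPM in CD8.1 replicate 1, which had the most Bcl2 of its group, and 617 and 575 in replicates 2 and 3, and its part in these results was not tested.

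Bcl2l1 (chromosome 2, 152780668 to 152831728, minus strand) encodes BCL-xL. Its levels were 19.9, 20 and 25.7 CPM in B6 CD4+ and 21.9, 19.3 and 21.8 in B6 CD8+ samples, and 22.2, 31.8 and 29.0 in CD8.1 and 14, 16.3 and 17.0 in CD8.2 samples. The B6 groups overlapped, and every CD8.1 sample was above every CD8.2 sample. CD8.1 T cells had 1.75-fold more Bcl2l1 than CD8.2 T cells (log2 fold change 0.81, 0.52 to 1.10, adjusted P = 0.000422), whereas the B6 lineages differed by 0.06 (-0.23 to 0.35, adjusted P = 0.818). The difference between these 2 values, 0.75 (0.34 to 1.16), did not pass the threshold in the fit of all samples (adjusted P = 0.0667). It passed in DESeq2 (adjusted P = 0.0153), with a replicate block nested in strain (adjusted P = 0.0158), without a filter on low counts (adjusted P = 0.00109), without B6 CD4+ replicate 3 (0.86, adjusted P = 0.0234) and without CD8.1 replicate 1 (0.87, adjusted P = 0.00469). With the length trend taken out it passed too (0.74, adjusted P = 0.0448). The other 12 of 18 alternatives, limma-voom among them, left it uncalled (adjusted P up to 0.191). CD8.1 T cells stood 1.27-fold above B6 CD4+ (adjusted P = 0.112) and CD8.2 T cells 1.33-fold below B6 CD8+ (adjusted P = 0.0831), neither called in the fit of all samples. The second was called with only these 2 groups fitted (adjusted P = 0.0113). Without CD8.1 replicate 1 or B6 CD4+ replicate 3, the first of these was called (0.46, adjusted P = 0.0147, and 0.45, adjusted P = 0.0416). The regulatory T cell marker sum was 519, 617 and 575 CPM in CD8.1 replicates 1 to 3, 220, 255 and 329 in those of B6 CD4+ and 69.7 to 75.7 in CD8.2 samples, and its part in the Bcl2l1 result was not tested.

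Mcl1 (chromosome 3, 95658788 to 95663176, plus strand) encodes the short-lived anti-apoptotic protein MCL-1. It was at 448, 416 and 486 CPM in B6 CD4+ and 362, 344 and 389 in B6 CD8+ samples, and 502, 468 and 469 in CD8.1 and 416, 416 and 423 in CD8.2 samples. Within each strain the helper group was above the cytotoxic group without overlap, the opposite order to Bcl2. The difference was 1.23-fold in B6 mice (log2 fold change 0.30, 0.15 to 0.46, adjusted P = 0.0063) and 1.15-fold in CD8Dual mice (0.20, 0.04 to 0.35, adjusted P = 0.055). The CD8Dual difference passed the threshold in DESeq2 (adjusted P = 0.0254) and in limma-voom (adjusted P = 0.0475), and the strains did not differ in it by the test (-0.11, -0.32 to 0.11, adjusted P = 0.704). Between strains, Mcl1 was 1.15-fold higher in CD8.2 than B6 CD8+ T cells (adjusted P = 0.112) and 1.07-fold higher in CD8.1 than B6 CD4+ T cells (adjusted P = 0.434), neither called.

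Pmaip1, which encodes NOXA, a BH3-only protein that binds MCL-1, showed the widest range of the 10 genes (2.38 between the lowest and highest group mean of log2 CPM) at the lowest level. Raw counts were 22, 17 and 25 in B6 CD4+ and 124, 138 and 112 in B6 CD8+ samples, and 52, 62 and 34 in CD8.1 and 110, 80 and 160 in CD8.2 samples. Scaled, these were 1.00, 0.733 and 1.06 CPM, then 5.08, 5.02 and 5.39, then 2.48, 2.74 and 1.61, then 4.68, 4.45 and 4.67 CPM, so that the 4 groups did not overlap at all. In B6 mice Pmaip1 was 5.51-fold higher in CD8+ than in CD4+ T cells (log2 fold change of CD4+ over CD8+ -2.46, -2.94 to -1.98, adjusted P = 6.3e-07), and in CD8Dual mice 2.01-fold higher in CD8.2 than CD8.1 T cells (-1.01, -1.44 to -0.58, adjusted P = 0.00168). CD8.1 T cells had 2.44-fold more than B6 CD4+ T cells (1.29, 0.78 to 1.79, adjusted P = 0.00327), while CD8.2 and B6 CD8+ T cells differed by -0.16 (-0.57 to 0.24, adjusted P = 0.663). The lineage difference was smaller in CD8Dual than in B6 mice by 1.45 (0.80 to 2.10, adjusted P = 0.019). That call was lost without any 1 of 5 samples (B6 CD4+ replicate 2, CD8.1 replicate 2 or any CD8.2 sample), at values of 1.29 to 1.46 and adjusted P values of 0.0516 to 0.0713. The memory or effector marker sum followed the same order of groups, lowest in B6 CD4+, then CD8.1, CD8.2 and B6 CD8+, and its part in the result was not tested. Not every marker in the sum had this order, as Cd44 was highest in CD8.1 samples (67.9 to 77.8 CPM, at most 61.0 in the others). Much of the sum was Nkg7, at 371 to 550 CPM in cytotoxic and at most 9.64 in helper samples, and Il2rb, at 83.5 to 493 CPM.

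Bid (chromosome 6, 120891930 to 120916853, minus strand) encodes the BH3-only protein that links death receptors and caspase-8 to the mitochondrion. It was at 16.2, 17.8 and 13.6 CPM in B6 CD4+ and 31.6, 32.7 and 27.5 in B6 CD8+ samples, and 19.3, 18.9 and 19.8 in CD8.1 and 33.2, 22.8 and 30.0 in CD8.2 samples. In both strains every cytotoxic sample was above every helper sample. The cytotoxic group was 1.93-fold higher in B6 mice (log2 fold change of CD4+ over CD8+ -0.95, -1.23 to -0.67, adjusted P = 5.78e-05) and 1.49-fold higher in CD8Dual mice (-0.57, -0.85 to -0.30, adjusted P = 0.00395). The 2 differences were not told apart (0.37, -0.02 to 0.77, adjusted P = 0.4), and neither CD8.1 against B6 CD4+ (0.29, adjusted P = 0.172) nor CD8.2 against B6 CD8+ (-0.09, adjusted P = 0.731) was called. Bcl2l13 on the opposite strand shares exon bases with Bid, and the use of strand in counting is not stated. Bcl2l13 was at 66.9 to 80.5 CPM over the samples, with log2 fold changes of -0.07 and -0.08 in the same 2 comparisons. The group means of Bid stood in the order of the memory or effector marker sum, as those of Pmaip1 did, though not in that of its marker Cd44. The part of the sum in the Bid result was not tested.

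Bbc3 (chromosome 7, 16308393 to 16318205, plus strand) encodes PUMA, a BH3-only protein and a target of p53. Levels were 13.4, 18.9 and 12.7 CPM in B6 CD4+ and 25.6, 28.7 and 28.7 in B6 CD8+ samples, and 14.9, 26.0 and 16.6 in CD8.1 and 17.0, 20.3 and 17.1 in CD8.2 samples. B6 CD8+ T cells were above the other groups except CD8.1 replicate 2, which overlapped them. In B6 mice the CD8+ level was 1.84-fold the CD4+ level (log2 fold change of CD4+ over CD8+ -0.88, -1.27 to -0.49, adjusted P = 0.00211), and in CD8Dual mice the lineages differed by 0.09 (-0.30 to 0.48, adjusted P = 0.756). The difference between the strains in this value, 0.97 (0.42 to 1.52), missed the threshold (adjusted P = 0.0786). In DESeq2 it passed (adjusted P = 0.0143), as it did with the replicate block (0.95, adjusted P = 0.0173), without a filter on low counts (0.96, adjusted P = 4.1e-06), without CD8.1 replicate 1 (1.11, adjusted P = 0.0104) or without B6 CD4+ replicate 2 (1.16, adjusted P = 0.0337). The other 13 of 18 alternatives, limma-voom among them, left it uncalled (adjusted P up to 0.208). CD8.2 T cells had 1.53-fold less Bbc3 than B6 CD8+ T cells (-0.62, -1 to -0.23, adjusted P = 0.0499), and this call was lost when any 1 of the 6 samples was left out (adjusted P of 0.0829 to 0.17).

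Bcl2l11 (chromosome 2, 128126038 to 128162547, plus strand), the gene of BIM, was not called in any of the comparisons by edgeR, and reached an unadjusted P under 0.05 in 1 of them, CD8.2 against B6 CD8+ T cells. Its levels were 66.4, 61.9 and 64.4 CPM in B6 CD4+ and 69.3, 72.4 and 72.5 in B6 CD8+ samples, and 70.7, 57.1 and 59.7 in CD8.1 and 54.4, 65.5 and 58.0 in CD8.2 samples. The B6 lineages differed by -0.15 (-0.35 to 0.04, adjusted P = 0.268) and the CD8Dual lineages by 0.08 (-0.12 to 0.27, adjusted P = 0.568). All CD8.2 samples were below the B6 CD8+ samples, by 1.21-fold (-0.27, -0.46 to -0.08, adjusted P = 0.0811), and that difference passed the threshold when only these 2 groups were fitted (adjusted P = 0.021) and in DESeq2 (adjusted P = 0.05, just under the threshold). Without CD8.1 replicate 1, Bcl2l11 was also called lower in CD8.1 than B6 CD8+ T cells (-0.31, adjusted P = 0.0068, against -0.19, adjusted P = 0.106, with it).

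Bad (chromosome 19, 6941861 to 6951899, plus strand) encodes a BH3-only protein held inactive by growth factor signals. It ranged from 9.60 to 13.7 CPM over the 6 B6 samples and from 13.8 to 18.3 over the 6 CD8Dual samples, which thus did not overlap. Neither strain showed a lineage difference past the threshold (-0.16, adjusted P = 0.457 in B6 and 0.00, adjusted P = 0.986 in CD8Dual mice). CD8.1 T cells were 1.31-fold above B6 CD4+ T cells (0.39, 0.11 to 0.68, adjusted P = 0.0668) and CD8.2 T cells 1.17-fold above B6 CD8+ T cells (0.23, -0.06 to 0.51, adjusted P = 0.325). The first of these passed in DESeq2 (adjusted P = 0.0452) and without CD8.1 replicate 1 (0.46, adjusted P = 0.028). Across strain and lineage, Bad was called higher in CD8.2 than B6 CD4+ cells (0.39, 0.10 to 0.67, adjusted P = 0.0427), a call lost without B6 CD4+ replicate 1 (0.25, adjusted P = 0.167) or any 1 of the CD8.2 samples (adjusted P of 0.061 to 0.13). Short transcripts, of up to 2000 bases like those of Bad, had a median log2 fold change of 0.07 in the first comparison and 0.02 in the second.

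The effectors Bax (chromosome 7, 45461697 to 45466898, minus strand) and Bak1 (chromosome 17, 27019810 to 27029009, minus strand) were not called in any comparison by edgeR, nor by DESeq2 or limma-voom. Bax was at 24.6, 31.3 and 31.6 CPM in B6 CD4+ and 31.6, 34.8 and 34.2 in B6 CD8+ samples, and 31.0, 31.9 and 27.7 in CD8.1 and 29.2, 33.8 and 30.3 in CD8.2 samples, and its intervals lay between -0.42 and 0.27 in the 4 comparisons within and between strains. Bak1 was at 48.8, 51.9 and 66.3 CPM in B6 CD4+ and 60.4, 63.4 and 66.4 in B6 CD8+ samples, and 52.5, 86.0 and 66.7 in CD8.1 and 56.5, 58.5 and 55.6 in CD8.2 samples. CD8.1 replicate 2 held the highest Bak1 level and CD8.1 replicate 1 the lowest of its group. Without CD8.1 replicate 1, Bak1 was called higher in CD8.1 than CD8.2 (0.41, adjusted P = 0.0158) and in B6 CD4+ T cells (0.44, adjusted P = 0.0184), where the values with it were 0.27 (adjusted P = 0.182) and 0.30 (adjusted P = 0.186). The latter was also called without a filter on low counts (0.29, adjusted P = 0.0385).

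In 9 of the 10 genes the lineage difference was shifted upwards in CD8Dual mice relative to B6 mice, Mcl1 being the exception, where 49.5% of all tested genes had a positive shift. The median shift was 0.33 for the 10 genes and 0.00 for all. Of the 10, 4 had an unadjusted P under 0.05 in edgeR, beside 1741 of the 13118 tested genes. Among all genes called for this difference, upward shifts also prevailed, with 207 upward and 38 downward. As given above, Pmaip1 alone was called in the main fit. Bcl2l1 and Bbc3 were also called by DESeq2, with the replicate block and without a filter on low counts, and Bcl2l1 with the length trend taken out. Without CD8.1 replicate 1, 4 members were called (Pmaip1, Bcl2l1, Bbc3 and Bak1) and 1356 of all genes, against 245 with it. The count of members fell to 0 without CD8.1 replicate 2 or any 1 of the CD8.2 samples, with 165 to 201 of all genes called. Without B6 CD4+ replicate 2 the count was 1 (Bbc3), with 181 of all genes.

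**Figure D4:**
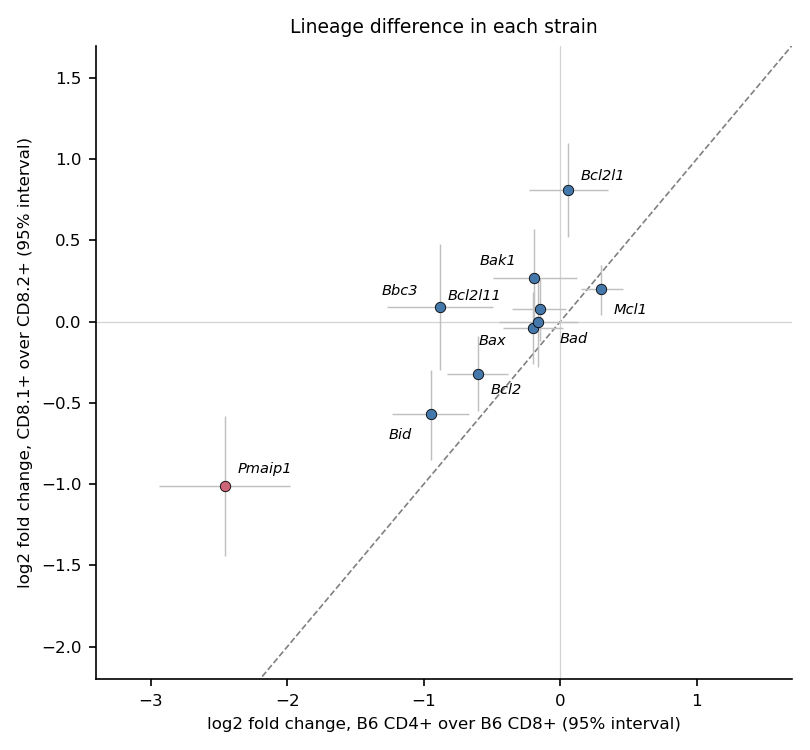
Log2 fold change of the helper over the cytotoxic group in B6 mice (x axis) and in CD8Dual mice (y axis) with 95% intervals; the dashed line marks equal values and the red point a gene whose difference between strains was called. Pmaip1 lies at -2.46 and -1.01, Bcl2l1 at 0.06 and 0.81, and Bbc3 at -0.88 and 0.09, all above the line.

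The balance of Bcl2 and Bcl2l11 within a sample needs no scaling between libraries. The ratio of their counts averaged 1.71 ± 0.101 (SD, n = 3) in B6 CD4+ and 2.33 ± 0.0208 in B6 CD8+ samples, and 1.26 ± 0.111 in CD8.1 and 1.68 ± 0.146 in CD8.2 samples. CD8.1 samples (1.16 to 1.38) were below all other samples and B6 CD8+ samples (2.31 to 2.35) above all others, with B6 CD4+ (1.60 to 1.80) and CD8.2 (1.54 to 1.83) overlapping. The ratio of Bcl2 to Mcl1 gave the same order, with 0.245 ± 0.0293, 0.458 ± 0.0264, 0.165 ± 0.0272 and 0.237 ± 0.00777. No test was made of these ratios. They do not cancel the trend on transcript length, the longest transcripts having 7191 (Bcl2), 5036 (Bcl2l11) and 3418 bases (Mcl1). Genes of over 4000 and up to 6000 bases had medians of -0.04 (CD8.1 over B6 CD4+) and -0.02 (CD8.2 over B6 CD8+). Those of over 2000 and up to 4000 bases had 0.02 and 0.01, and those of the length of Bcl2 -0.09 in both. The ratio of Bax to Bak1 averaged 0.529, 0.528, 0.459 and 0.546 in the same order of groups, with CD8.1 samples at 0.591, 0.371 and 0.415 and all others at 0.478 to 0.603.

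**Figure D5:**
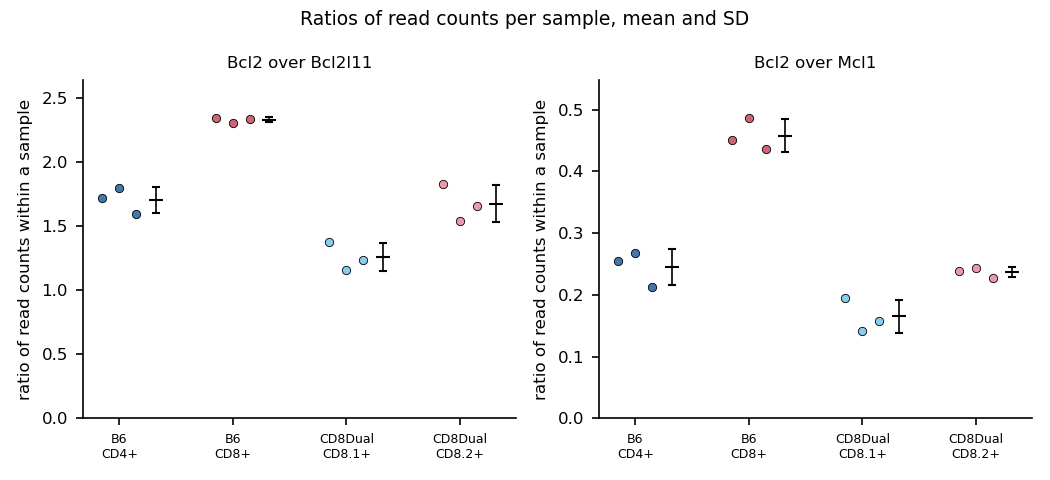
Ratio of read counts of Bcl2 to Bcl2l11 (left) and of Bcl2 to Mcl1 (right) in each sample, axes from 0; points are samples, and the dash and bars beside them the mean and SD of 3 samples. In both panels B6 CD8+ samples are the highest and CD8.1 samples the lowest.

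Among 15 other genes of the family, 10 passed the filter on low counts. In B6 mice 1 was called, higher in CD4+ than CD8+ T cells, and in CD8Dual mice 2 were higher in CD8.1 than CD8.2 cells and 1 lower, beside 23.1% and 28.7% of all tested genes. Bcl2a1d, one of several near-identical copies of the anti-apoptotic gene A1 whose reads cannot be assigned with certainty, was higher in the helper group of both strains (log2 fold change 1.22, adjusted P = 0.00263 in B6 and 1.20, adjusted P = 0.00229 in CD8Dual mice). Its copy Bcl2a1b was not called (0.36 and -0.21). Bcl2l14 (1.35 against 0.496 CPM) was higher and Bik (0.511 against 1.10 CPM), a BH3-only gene, was lower in CD8.1 than CD8.2 T cells (1.46, adjusted P = 0.00283 and -1.11, adjusted P = 0.0471), both at about 1 CPM. Bnip3l, a mitophagy receptor, was higher in CD8.2 than B6 CD8+ T cells (0.34, adjusted P = 0.0456), the only 1 of the 10 called in that comparison, beside 7.94% of all tested genes. For CD8.1 against B6 CD4+ cells 0 were called by edgeR, DESeq2 or limma-voom, beside 12.8% of all genes called by edgeR. At an unadjusted P under 0.05 in edgeR there were 0 of the 10, beside 3771 of the 13118 tested genes. Bmf, another BH3-only gene, was at 6.32 to 9.82 CPM in the group means and was not called.

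Downstream of the mitochondrion, 16 genes of caspases, the apoptosome and their inhibitors were all tested. In B6 mice 4 were called, all higher in CD4+ T cells, and in CD8Dual mice 4 were called, all higher in CD8.1 T cells, beside 23.1% and 28.7% of all tested genes. Birc3, an inhibitor of apoptosis, was higher in the helper group of both strains (0.39, adjusted P = 0.00076 and 0.41, adjusted P = 0.000506), as was the initiator caspase gene Casp8 (0.29, adjusted P = 0.00664 and 0.24, adjusted P = 0.0203). The executioner caspase gene Casp6 was called in B6 mice (0.44, adjusted P = 0.00538). Between CD8.2 and B6 CD8+ T cells 0 of 16 were called by edgeR, DESeq2 or limma-voom, beside 7.94% of all tested genes by edgeR. At an unadjusted P under 0.05 in edgeR there were 3 of the 16, beside 3108 of the 13118 tested genes.

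Of 12 genes known to regulate BCL2 family genes or proteins, 2 were higher and 1 lower in B6 CD4+ than CD8+ T cells, and 1 was called, higher in CD8.1 than CD8.2 cells, beside the same 23.1% and 28.7% of all genes. Foxo1, a FOXO factor, was higher in the helper group of both strains (0.45, adjusted P = 0.000182 and 0.24, adjusted P = 0.0185) and lower in CD8.1 than B6 CD4+ T cells (-0.29, adjusted P = 0.0138). Ddit3 (CHOP, a stress factor) was higher (0.53, adjusted P = 0.0021) and Fbxw7, part of a ubiquitin ligase that marks MCL-1 for degradation, was lower (-0.42, adjusted P = 0.0358) in B6 CD4+ T cells, and Fbxw7 was also lower in CD8.2 than B6 CD8+ T cells (-0.51, adjusted P = 0.032). Trp53, the gene of p53, was not called within either strain (-0.23, adjusted P = 0.102 in B6 and -0.09, adjusted P = 0.5 in CD8Dual mice) and was higher in CD8.2 than B6 CD4+ cells (0.35, adjusted P = 0.0122).

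Cytokine receptors that sustain these survival genes, with their STAT factors, were called in 5 of 9 cases in B6 mice (3 higher and 2 lower in CD4+ T cells) and 6 of 9 in CD8Dual mice (4 higher and 2 lower in CD8.1 T cells), beside 23.1% and 28.7% of all genes. Il7r, the receptor chain for IL-7, was not called in either (-0.16, adjusted P = 0.39 and -0.18, adjusted P = 0.273). Il2rb, the chain shared by the IL-2 and IL-15 receptors, averaged 95.2 CPM in B6 CD4+ and 473 in B6 CD8+ samples, and 242 in CD8.1 and 316 in CD8.2 samples. Its lineage difference was -2.31 in B6 mice (adjusted P = 8.26e-11) and -0.39 in CD8Dual mice (adjusted P = 0.00627). Il2ra (4.93, adjusted P = 4.71e-11 and 5.77, adjusted P = 7.71e-12), which is also on the regulatory T cell list, and Il4ra (0.49, adjusted P = 0.000234 and 0.43, adjusted P = 0.000848) were higher in the helper group of both strains.

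Genes with the most similar pattern over the 12 samples were sought for the 3 genes with the widest range, as the smallest root mean square difference in centred log2 CPM. For Pmaip1 these were Rhoq (0.205), Glipr2 (0.284) and Il2rb (0.287). For Bcl2 they were Dennd3 (0.133), Samd9l (0.169) and Xrn1 (0.173), and for Bid they were Fam174b (0.137), Tbc1d31 (0.154) and D16Ertd472e (0.154). Dennd3, for example, averaged 7.29, 12.7, 5.53 and 7.51 CPM in the 4 groups, listed with B6 CD4+ first, then B6 CD8+, CD8.1 and CD8.2, the order seen for Bcl2 except that CD8.2 was slightly above B6 CD4+.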

How the data were processed

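RNA-seq was analysed for 12 samples, 3 in each of 4 groups set by the sample labels. Per the study's methods, the authors prepared libraries with a low-input kit, aligned read pairs to mm10 with STAR and quantified genes by RSEM. The deposited table holds raw counts, which are whole numbers. Versions, the annotation release and the use of strand are not given in the sources used here. All 12 columns were matched to samples by name.

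The quasi-likelihood F test of edgeR 4.0.16 (R 4.3.3, TMM scaling, filterByExpr) was applied to the counts, with all 12 samples in 1 model of 4 group means. P values were adjusted by Benjamini-Hochberg over the 13118 genes tested, and a gene was called at an adjusted P under 0.05. The study's own limits, a fold over 5 and an unadjusted P under 0.05, were an alternative. Standard errors came from the fold change and the F statistic, and intervals are 95%. Alternatives used DESeq2 1.42.0, limma 3.58.1 (voom), no filter, the compared groups alone, each sample left out, and the replicate number as a block. Positions and lengths came from GENCODE M21 on GRCm38, and CPM values use the TMM scale.

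No 2 samples agreed within sampling noise (chi-square between replicates of 8.48 to 83.7 per gene). Same-numbered B6 CD4+ and CD8+ samples deviated together (correlations 0.126, 0.138 and 0.257, against -0.221 to 0.0999 for samples of different number). Samples of different strains, which cannot be pairs, reached 0.17, above 0.126 and 0.138, so the check could not settle whether the numbers pair the B6 samples. For CD8.1 and CD8.2 the joint deviation was less clear (-0.00388, 0.0905 and 0.119, against -0.127 to 0.0321), and their numbers were not taken to pair them. The main test used no pairing in either strain, and the block within each strain used the numbers in both.

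The members and lists were chosen with earlier results of these data known. All 10 members are described. From each other list, the 3 genes with the smallest P within either strain are named, and any other BCL2 family gene that was called. Bcl2a1b, Bmf, Casp8, Trp53, Il7r, Foxp3 and Zbtb16 lie outside this rule and were named after their values were seen. Of the genes this rule names, 1 is not reported here.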

Additional observations from a re-analysis of the deposited data

Results flagged for a closer look

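Of the survival, caspase, regulator and receptor genes named in the text, 2 differed between the strains in the size of their lineage difference, by a test of that difference in edgeR over all genes. For Pmaip1 the log2 fold change of CD8.1 over CD8.2 exceeded that of B6 CD4+ over CD8+ by 1.45 (adjusted P = 0.019). For Il2rb, chosen among the cytokine receptors for its small P values, it did so by 1.93 (adjusted P = 4.78e-07). Il2rb was higher in CD8.1 than B6 CD4+ T cells (1.35, adjusted P = 8.88e-07) and lower in CD8.2 than B6 CD8+ T cells (-0.58, adjusted P = 0.00153). Il2rb also stands on the memory or effector marker list and was the third closest gene to Pmaip1 over the 12 samples.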

How the results depend on the processing

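Values below are log2 fold changes of the first group over the second, and counts are of the 10 genes or of all tested genes. The study's limits (fold over 5, unadjusted P under 0.05) left 1 of the 10 genes (Pmaip1) and 431 genes for B6 CD4+ against CD8+, and none of the 10 in the other comparisons (0), with 435 genes for CD8.1 against CD8.2, 80 for CD8.1 against B6 CD4+, 76 for CD8.2 against B6 CD8+, 532 for CD8.1 against B6 CD8+, 358 for CD8.2 against B6 CD4+ and 152 for the difference between strains. An adjusted P under 0.05 with a fold over 1.5 left 2, 1, 3 and 2 of the 10 for CD8.1 against CD8.2, CD8.1 against B6 CD4+, CD8.1 against B6 CD8+ and CD8.2 against B6 CD4+, and 1721, 1928, 798, 480, 2650 and 1804 of all genes in the order of comparisons given first. Without a filter on low counts, 5 of the 10 and 2342 genes were called for CD8.1 against B6 CD4+. That fit called 3 of the 10 and 620 genes for the difference between strains, and 1593 genes for CD8.2 against B6 CD8+. With only the groups compared in the fit, CD8.1 against B6 CD4+ called 1 of the 10 and 674 genes, and CD8.2 against B6 CD8+ called 5 and 2515. For the difference between strains, DESeq2 called 3 of the 10 and 410 genes. The length-trend fit, chosen after seeing the data, called 2 of the 10 and 262 genes there. The cause of these changes was not tested.

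With the replicate number as a block, 5 of the 10 genes were called in B6 mice (3194 genes in all), 5 in CD8Dual mice (4101) and 3 for the difference between strains (330), the gains being Mcl1 in CD8Dual mice (adjusted P = 0.0311) and Bcl2l1 and Bbc3 for the difference between strains (adjusted P = 0.0158 and 0.0173). Between strains, where the numbers do not pair the samples, the block added Bad for CD8.1 against B6 CD4+ (adjusted P = 0.0492). This made 3 of the 10, beside 1501 of all genes. It changed no other call of the 10.

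Leaving out 1 sample at a time gave 1 to 5 of the 10 and 765 to 2958 genes for CD8.1 against B6 CD4+. For CD8.2 against B6 CD8+ it gave 1 of the 10 each time and 431 to 802 genes. For CD8.2 against B6 CD4+ it gave 2 to 4 of the 10 and 2491 to 3047 genes. The difference between strains had 0 to 4 of the 10 and 165 to 1356 genes. In B6 mice 5 of the 10 were left each time, with 2418 to 2704 genes. The sign turned only for values that were not called. Over the samples left out, Bcl2l1 in B6 mice ranged from -0.07 to 0.12. In CD8Dual mice Bcl2l11 ranged from -0.04 to 0.14, Bbc3 from -0.20 to 0.23, Bax from -0.09 to 0.01 and Bad from -0.12 to 0.07. For CD8.1 against B6 CD4+ the ranges were -0.15 to 0.02 for Bcl2l11 and -0.07 to 0.10 for Bax. Bid ranged from -0.21 to 0.05 for CD8.2 against B6 CD8+, and Bak1 from -0.09 to 0.25 for CD8.1 against B6 CD8+. For CD8.2 against B6 CD4+ Bax ranged from -0.02 to 0.13 and Bak1 from -0.06 to 0.16. Bad in CD8Dual mice also turned to -0.01 without the filter, -0.01 with the block and -0.04 in the length-trend fit, which also gave 0.02 for Bcl2l11 and -0.02 for Bax in CD8.1 against B6 CD4+.

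Of the alternative values of single genes and ratios, 908 kept their direction and side of the threshold or, where untested, moved by less than 1 SD, 37 calls were lost, 33 were gained, 20 uncalled values changed sign, and 26 levels per kilobase moved by more with the longest transcript as the length. Depth limits Pmaip1 most, with 17 to 25 counts in B6 CD4+ samples.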
